A study of Mus musculus with 2 samples.

Results

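MHC class II low macrophages were followed among the CD45+ cells of the mouse adrenal gland. They were 221 of the 6648 cell barcodes in the data, 188 in the female and 33 in the male library. A cell had to hold at least 5 unique molecular identifiers (UMIs, counts of single captured transcripts) of the complement genes C1qa, C1qb and C1qc together. It was left out if it held more than 2 UMIs of Lyve1, Folr2, Cbr2 and Fcna together, at least 5 of Retnla, or any of the B cell gene Cd79a or the T cell gene Cd3e. This C1q gate held 695 female and 584 male cells. A gated cell was called low when Cd74, H2-Aa, H2-Eb1 and H2-Ab1 made up at most 10 of every 1000 of its UMIs, and high otherwise, which left 507 female and 551 male high cells. The members were thus chosen by the measured transcripts of these genes, and any comparison of low with high cells describes the cells so chosen.

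The study sorted CD45+ leukocytes from adrenal glands of C57BL/6 mice aged 7 weeks and made 1 droplet single-cell RNA library from females and 1 from males. All animals were of this strain with no genetic change or treatment given in the labels, and how many animals were pooled for a library was not given. The sort takes leukocytes of every kind, so the macrophages had to be separated from other cells by their transcripts.

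MHC class II molecules carry peptides from the outside of a macrophage to its surface, where helper T cells read them. The invariant chain, encoded by Cd74, guides the molecules through the cell, H2-DM loads the peptide, and the coactivator CIITA switches the whole gene set on. Tissue macrophages that differ in this gene set occur side by side in many organs, and in the adrenal gland macrophages lie between steroid-producing cells.

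Barcodes were kept with at least 200 genes, at least 1000 UMIs and at most 15% mitochondrial UMIs, which left 3624 female and 2260 male barcodes. The libraries held 16218309 female and 9512670 male UMIs. The low cells contributed 870258 UMIs in females, with a median of 4188 per cell, and 136905 in males, with a median of 3290. High cells had medians of 3898 and 3522 UMIs. Counts are given below as CPM, the UMIs of a gene scaled to a total of 1000000 UMIs over the cells of a group. With 1 library per sex there was no replicate and no test was possible, and the 95% intervals in parentheses (exact binomial, exact Poisson or, for differences of shares, Newcombe) cover counting error only. Since UMIs lie in few cells for some genes, these intervals are too narrow for differences between cells or animals. Xist was found in 132 of the 188 female members and in 0 of the 33 male members. The libraries shared 2 barcode sequences, and 0 of these were members in both.

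The label was first checked against its 4 markers and against genes of other cells. C1qa, which the rule used, was detected in 97.9% of female and 100% of male members, at 4985 CPM (4837 to 5135) and 2783 CPM (2510 to 3077). Cx3cr1, the receptor for fractalkine, was detected in 79.3% of female members and 63.6% of male members. The study found that recruited CCR2+ cells mostly became CX3CR1+ macrophages in this tissue, so the gene is not read as a mark of long-lived cells. In the female natural killer (NK) cell gate, whose median of 4221 UMIs per cell was close to that of the female members, Cx3cr1 was detected in 8.29% of cells. Itgam, the integrin chain CD11b, was detected in 30.3% of female and 18.2% of male members, against 21.8% of female NK cells, which express it too. AA467197 was detected in 35.6% of female members and in 0 of 33 male members.

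Of the core macrophage genes, Adgre1 and Csf1r are given here. Adgre1, which encodes F4/80, was detected in 72.3% of female and 54.5% of male members. Csf1r, the receptor for the macrophage growth factor CSF1, was detected in 89.9% and 69.7%. In the female NK gate these genes were detected in 1.18% and 5.39% of cells. The comparison covers NK cells only and does not set the members apart from monocytes. The shares of Cx3cr1, Adgre1 and Csf1r were lower in male than in female members, at median depths of 3290 and 4188 UMIs, and AA467197 was not detected in the male members. Over the 18 core macrophage genes outside the rule, the median log2 ratio of low to high cells was 0.05 in females and -0.42 in males. The medians of all genes were 0.08 and 0.06. Below 0 lay 8 of the 18 in females and 14 of the 18 in males.

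Some members also carried transcripts of other cells. Cells with at least 3 UMIs of the NK genes Ncr1, Nkg7, Prf1, Klrb1c, Klra4 and Klra8, at least 2 of the monocyte genes Ly6c2, Chil3, Plac8, Ace and Treml4, or at least 10 of an endothelial list are called marked cells below, a division chosen after the data had been seen. Of the female members, 19 held the NK genes (10.1%, 6.20 to 15.3), 31 the monocyte genes (16.5%) and 1 the endothelial genes. Marked cells of any kind were 47 of 188 (25%, 19 to 31.8) in females, and 72 of 507 high cells (14.2%). In males 13 of 33 members were marked (39.4%, 22.9 to 57.9), 8 of them with NK genes, against 31 of 551 high cells (5.63%). The NK-marked members had few C1q transcripts, with medians of 17 UMIs in females and 6 in males, whereas the median over unmarked members was 60 and 29. The 10 genes of the NK list summed to 7859 CPM in male members and 322 CPM in male high cells, and to 110 and 103 CPM without the marked cells. What part the marked cells take in a result was not tested, and values without them rest on 141 female and 20 male members. Among these 20 male members Cx3cr1, Adgre1 and Csf1r were detected in 14, 14 and 16 cells. The level of Adgre1 was then 575 CPM in female and 550 CPM in male members, that of Csf1r 1269 and 1031 CPM and that of Cx3cr1 1106 and 893 CPM. AA467197 stood at 527 CPM in these female members, with 0 UMIs in the male ones.

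**Figure D1:**
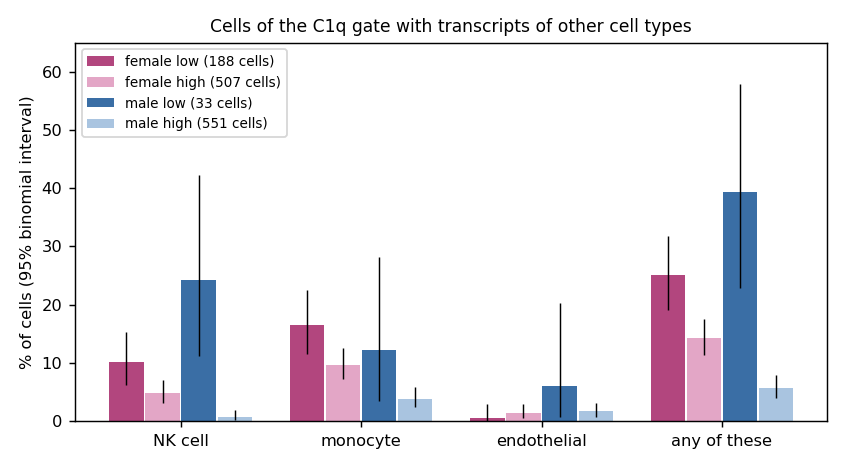
Share of cells of the C1q gate, in percent, that held transcripts of NK cells, monocytes, endothelial cells or any of these, for low and high cells of each library. Bars are shares and lines 95% binomial intervals, and the share with any of these was higher in low than in high cells of both libraries (25% against 14.2% in females, 39.4% against 5.63% in males), while endothelial transcripts were found in 1 of 188 low and 7 of 507 high cells of the female library.

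The first question was how large the low class was in each sex. Low cells were 27.1% of the female C1q gate (188 of 695, 23.8 to 30.5) and 5.65% of the male gate (33 of 584, 3.92 to 7.84). The female share was higher by 21.4 percentage points (17.6 to 25.2), an interval that does not include 0 but takes no account of differences between animals. Of all kept barcodes, the low cells were 5.19% in the female and 1.46% in the male library. Without the marked cells the shares were 24.5% (141 of 576) and 3.70% (20 of 540), and the difference was 20.8 points (16.9 to 24.7).

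In females 103 members lay at 0 to 2 UMIs per 1000, 49 at over 2 to 5 and 36 at over 5 to 10. The female high cells filled the next steps with 69 cells at over 10 to 20, 159 at over 20 to 40 and 279 above 40. Near the boundary, 8 female members lay just inside at over 8 to 10 and 14 female high cells just outside at over 10 to 12. The male members were spread more evenly, with 11, 14 and 8 cells in the 3 low steps, and 4 just inside against 1 just outside. The median level was 1.69 UMIs per 1000 in female and 3.42 in male members, and 16 female and 3 male members had 0 UMIs of the 4 genes.

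**Figure D2:**
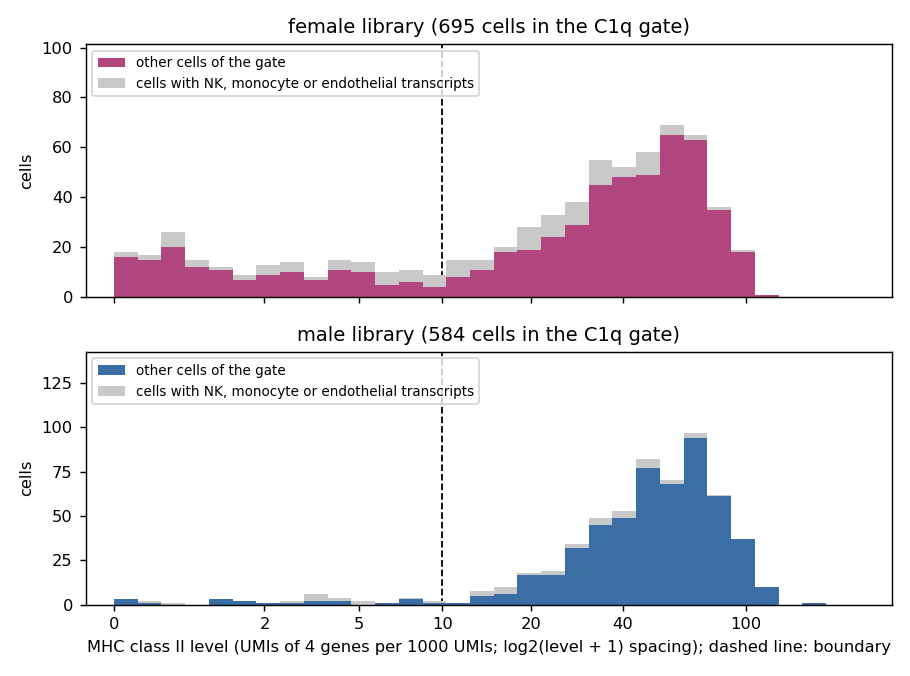
Number of cells (vertical axis) by MHC class II level, the UMIs of Cd74, H2-Aa, H2-Eb1 and H2-Ab1 per 1000 UMIs of a cell (horizontal axis, spaced as log2 of the level plus 1), for the C1q gate of each library, with marked cells in grey and the boundary of 10 as a dashed line. In the female library 103 of 188 members lie at 2 or below and cells are found at every step up to the boundary, and the male library has 33 members in all.

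By construction the 4 genes of the rule were low. In females H2-Aa was at 327 CPM in low and 9035 CPM in high cells, and Cd74 at 1868 and 20078 CPM. In males H2-Aa was at 723 and 11777 CPM, and Cd74 at 2228 and 25927 CPM. No more is read from these values.

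Across all genes few transcripts were past 2-fold between the low and high cells of the female library. Of 6519 genes with at least 50 UMIs, 45 (0.69%) were 2-fold or more higher in low cells and 38 (0.583%) 2-fold or more lower, on the scale of CPM plus 10. The rule had used this contrast, so nothing is inferred from these counts. In males 285 of 5635 genes (5.06%) were higher and 350 (6.21%) lower, where 33 cells leave a wide counting error. Scaled with TMM factors, which aim to make the bulk of genes equal, the splits were 36 higher and 47 lower in females and 127 higher and 664 lower in males. This scaling moved the median of all genes by -0.11 in females, from 0.08 to -0.03, and by -0.29 in males, from 0.06 to -0.23 (log2). In males the median thus ended further from 0, and the male split carries this shift. Without marked cells, 41 of 5416 female genes (0.757%) were higher and 44 (0.812%) lower, and of 5132 male genes 366 (7.13%) were higher and 489 (9.53%) lower.

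F13a1 and Cd163 had the highest ratios of CPM plus 10 among the genes named in female members. F13a1 (chr13:36867178-37050244, minus strand, GRCm38), the catalytic chain of coagulation factor XIII that crosslinks fibrin, was at 317 CPM (281 to 357) in female low cells and 31.7 CPM (24.9 to 39.7) in female high cells, 10.0-fold higher (7.72 to 13.1). In males it was at 43.8 CPM (16.1 to 95.4) and 26.6 CPM (20.4 to 34.1), and these intervals overlapped. Cd163 (chr6:124304656-124330527, plus strand), the receptor that clears haemoglobin bound to haptoglobin, reached 111 CPM (90.4 to 136) in female low and 9.72 CPM (6.16 to 14.6) in female high cells, 11.5-fold higher (7.22 to 18.9). Only 24 of the 188 female members held a Cd163 UMI. Male members had 4 UMIs of Cd163 in 3 cells, or 29.2 CPM (7.96 to 74.8) against 11.2 CPM (7.30 to 16.4), and again the intervals overlapped. Without the marked cells the female ratios were 9.38-fold for F13a1 and 14-fold for Cd163.

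Ecm1 was higher in low cells of both libraries. Ecm1 (chr3:95734147-95739569, minus strand), a secreted protein of the extracellular matrix, was at 353 CPM (314 to 395) in female low and 77.4 CPM (66.6 to 89.4) in female high cells, 4.56-fold higher (3.79 to 5.51). In males it was at 131 CPM (77.9 to 208) and 24.9 CPM (18.9 to 32.2), 5.28-fold higher (2.93 to 9.09), with its 18 UMIs in 8 cells. None of the male Ecm1 UMIs came from marked cells, and without them the ratios were 5.30 and 9.54.

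Some further genes named in female members act on lipids or oxidants. The lipid handling list as a whole was not on the higher side over all female cells. Of 21 measured genes 2 were higher and 0 lower, where 0.69% of all genes were higher. Its median log2 ratio was -0.16, against 0.08 for all genes. Apoc2, the apolipoprotein that activates lipoprotein lipase, was at 353 CPM in female low and 119 CPM in female high cells, 2.96-fold higher (2.51 to 3.49), and at 95 and 54.1 CPM in males (1.75-fold, 0.909 to 3.11). Gpx3, a secreted glutathione peroxidase, was 4.02-fold higher in females (2.93 to 5.54) and 2.15-fold in males (0.994 to 4.17), where 10 UMIs lay in 5 cells. Apoc1, of the same apolipoprotein cluster, was 3.95-fold higher in females, but 71.0% of its UMIs came from the 5 richest cells, and male members had 0 UMIs. Alox5, the 5-lipoxygenase that begins leukotriene synthesis, was 3.83-fold higher in females (2.5 to 5.93) and rested on 1 UMI in male members. In contrast Lpl, lipoprotein lipase itself, was 1.98-fold lower in female members (1.71 to 2.29).

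The other genes named in this direction have varied roles. The calcineurin regulator Rcan1 was 3.21-fold higher in female members (2.32 to 4.46) and 4.25-fold in male members (2.06 to 8.12), the latter from 3 cells. Ccn1, a matricellular signalling protein, was 4.41-fold higher in females (2.88 to 6.83), and its male UMIs came from 1 cell. Slfn1, of the Schlafen family, was 4.22-fold higher in females (2.89 to 6.23) with 0 UMIs in male members, and Inf2, an actin-assembling formin, was 4.2-fold higher with 1 male UMI. S100a6, a small calcium-binding protein, was 3.18-fold higher in females (2.88 to 3.52) and 6.04-fold in males (4.94 to 7.35). NK cells and monocytes hold much S100a6, with 1447 and 2968 CPM in the female gates, and without marked cells the ratios were 3.18 in females and 2.78 in males.

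Some named genes are markers of the other cells. Chil3 and Ly6c2, genes of inflammatory monocytes whose reads can be shared with close paralogs, were 6.43-fold and 4.41-fold higher in female members. Both genes helped to define the marked cells, so their values without these cells follow from that choice: Chil3 was left with 2 UMIs and a ratio of 1.55 (0.140 to 10.8) and Ly6c2 with 4 UMIs and a ratio of 2.06 (0.428 to 8.69). In males the genes named as highest are ones that lymphocytes express, Nkg7, Cd7, Ccl5, Sept1, Klrd1 and Il2rb. Nkg7 was at 1030 CPM in male low and 25.8 CPM in male high cells, and Ccl5 at 4076 and 143 CPM. Without marked cells, which Nkg7 also helped to define, Nkg7 rested on 2 UMIs, and Ccl5 on 1 UMI with a ratio of 0.229 (0.00576 to 1.30).

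H2-DMb1 and Ciita, which act with MHC class II, had the lowest ratios of CPM plus 10 among the genes named in female members, although genes with fewer UMIs had lower ratios of CPM. Ciita (chr16:10480059-10528418, plus strand), the coactivator of the class II genes, was at 10.3 CPM (4.73 to 19.6) in female low and 127 CPM (113 to 142) in female high cells, 12.3-fold lower (6.40 to 27.2). In males it was at 14.6 CPM (1.77 to 52.8) and 166 CPM (150 to 184), 11.4-fold lower (3.13 to 94.3). H2-DMb1 (chr17:34153072-34160230, plus strand), the beta chain of the peptide loader, was at 75.8 CPM (58.7 to 96.5) in female low and 608 CPM (577 to 641) in female high cells, 8.02-fold lower (6.27 to 10.4), and at 73.0 and 761 CPM in males, 10.4-fold lower (5.65 to 21.8). Its reads can be shared with the near-identical H2-DMb2. H2-DMa, the alpha chain, was 2.5-fold lower in females (2.17 to 2.88) and 3.73-fold in males (2.55 to 5.68). The rule had used none of these 3 genes, but they act with the class II genes that it did use, so their levels are not independent of the rule.

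The list of MHC class II accessory genes had 17 genes outside the rule, of which 10 were measured in each library. In females 3 of these 10 were 2-fold or more lower, Ciita, H2-DMa and H2-DMb1, and 0 higher, where 0.583% of all genes were lower. The same 3 were lower in males, where 6.21% of all genes were. Ctss, the protease cathepsin S that trims the invariant chain, was at 2649 CPM in female low and 2588 CPM in female high cells. The 15 genes of MHC class I and its peptide supply had 0 genes past 2-fold in unmarked female cells and a median log2 ratio of 0.00, where the median of all genes was 0.08. In unmarked male cells 14 of them were measured, with 0 past 2-fold higher and 4 lower, where 9.53% of all genes were lower, and their median was -0.42 against 0.05 for all genes. Over all male cells 1 of 15 was higher and 0 lower, where 5.06% of all genes were higher and 6.21% lower. The median there was -0.21, against 0.06 for all genes.

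Class II genes share a promoter element made of short boxes, the X box with a neighbouring X2 box and the Y box, onto which CIITA is recruited. The stretches of 250 bases before the RefSeq start of H2-Aa and H2-Eb1 are shown because these genes set the level by which the members were chosen. Capitals mark matches to GATTGG (the Y box letters), AACNGATG (X box) and TGACGTCA (X2 box), searched on both strands, and the sequences read 5′ to 3′ on the strand of the gene (RefSeq, GRCm38.p6).
H2-Aa, chr17:34287824-34288073, minus strand: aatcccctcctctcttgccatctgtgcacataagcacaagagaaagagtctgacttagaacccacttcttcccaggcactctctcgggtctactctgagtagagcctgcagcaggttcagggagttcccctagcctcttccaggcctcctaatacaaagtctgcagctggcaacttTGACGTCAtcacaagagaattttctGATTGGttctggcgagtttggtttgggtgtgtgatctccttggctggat
H2-Eb1, chr17:34305617-34305866, plus strand: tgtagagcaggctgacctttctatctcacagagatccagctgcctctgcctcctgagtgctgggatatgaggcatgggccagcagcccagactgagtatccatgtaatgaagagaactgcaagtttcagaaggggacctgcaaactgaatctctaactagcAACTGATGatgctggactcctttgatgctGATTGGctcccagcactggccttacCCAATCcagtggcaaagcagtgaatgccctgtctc

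In H2-Aa the X2 letters began 74 and the Y letters 49 bases before the start, and in H2-Eb1 the X letters began 89 and the first Y letters 60 bases before it, with a further Y match on the opposite strand nearer the start. H2-DMb1 held the X and Y letters as well, and of the 2 windows of H2-DMa 1 held the Y letters and 0 the others. Genes higher in members held such letters too, Ecm1 the X and Cd163 the Y letters. Of 32851 promoter windows of this length, 14.6% held GATTGG, 1.98% AACNGATG and 1.55% TGACGTCA, and 0.511% held GATTGG with either of the others. A match describes the letters only. H2-Ab1 and Ciita were not matched in the table.

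Clec4b1, a C-type lectin receptor with close paralogs, was at 21.8 CPM (13.1 to 34.1) in female low and 179 CPM (162 to 197) in female high cells, 8.19-fold lower (5.18 to 13.7), and 6.30-fold lower in males (2.68 to 19.5). Itgax, which encodes CD11c, was 4.89-fold lower in females (3.39 to 7.29) and 1.64-fold in males (1.05 to 2.71). NK cells express Itgax too, and without marked cells it was 9.62-fold lower in females and rested on 4 UMIs in males. Mgl2, a lectin for galactose-bearing glycans, was 3.83-fold lower in females (2.58 to 5.91) and 13-fold in males (4.42 to 63.1), on 3 UMIs in the latter. H2-M2, a non-classical class I gene, was 14.6-fold lower in females (5.60 to 54.3) on 4 UMIs. Wfdc17, a small secreted inhibitor-like protein, was at 581 and 1552 CPM in females, 2.67-fold lower (2.43 to 2.94), and 1.29-fold lower in males (1.10 to 1.53). Tlr12, a receptor for parasite profilin, and Slamf8, of the SLAM receptor family, each had 1 UMI in female members (35.7-fold lower, 6.26 to 1424, and 26.5-fold lower, 4.61 to 1061).

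Mmp12, the macrophage elastase, went in opposite directions in the libraries. It was at 82.7 CPM (64.7 to 104) in female low and 461 CPM (434 to 489) in female high cells, 5.57-fold lower (4.39 to 7.17). In males it was at 1629 CPM (1422 to 1857) and 387 CPM (362 to 413), 4.21-fold higher (3.62 to 4.88). All male UMIs of Mmp12 came from 4 of the 33 members, 3 of them unmarked, and the difference between the libraries was not tested.

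**Figure D3:**
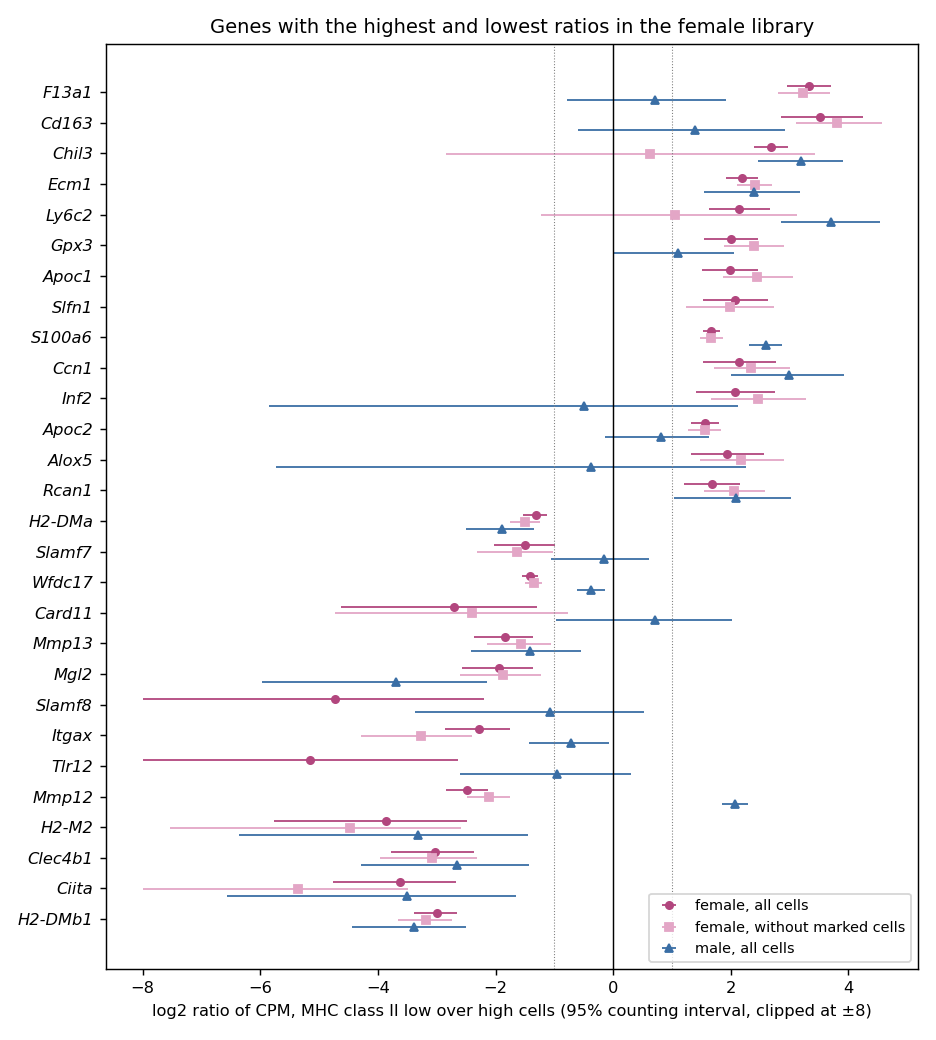
Log2 ratio of CPM in low over high cells (horizontal axis, clipped at 8 on either side) with its 95% counting interval for the 28 genes named by rule in the female library, for all female cells, female cells without marked cells, and all male cells. Points without UMIs on either side are not drawn (Apoc1 and Slfn1 in males, Slamf8 and Tlr12 in unmarked females), and Mmp12 is the gene with male and female intervals on opposite sides of 0 (dotted lines mark 2-fold).

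Both libraries could be set beside each other for 4918 genes that were measured in unmarked cells and took no part in the rule. In females 27 of these (0.549%) were 2-fold or more higher and 36 (0.732%) lower. In males 349 (7.1%) were higher and 442 (8.99%) lower. The genes higher in both libraries were 13, namely Apoc2, Ccl2, Ccl7, Ctla2b, Ecm1, Fcrls, Gpx3, Ier3, Pf4, Pmepa1, Rcan1, S100a6 and Tcn2, or 48.1% of the genes higher in females and 3.72% of those higher in males. Those lower in both were 10, namely Ciita, Clec4b1, Gm34084, H2-DMa, H2-DMb1, H2-M2, Itgax, Mgl2, Plbd1 and S100a9, or 27.8% of the genes lower in females and 2.26% of those lower in males. Over all cells 5551 genes were measured in both, 27 of them higher in females and 278 in males. Of these, 19 were higher in both, or 70.4% of the genes higher in females. Apoc2, Gpx3, Pmepa1 and Tcn2 were not among the 19. Lower were 31 in females, 335 in males and 13 in both, without Itgax and Plbd1. Past 2-fold in opposite directions were 3 genes over all cells and 2 without marked cells. With 20 unmarked male members, a few cells decide many of the values without marked cells. Immediate early and heat shock genes, which rise when cells are handled, were higher in the same male cells, with 10 of 21 measured genes past 2-fold higher and a median of 1.0, against 1 of 22 higher, 1 (Atf3) lower and a median of 0.21 in unmarked female cells. What part this takes in the genes shared by both libraries was not tested.

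Pf4 and Tcn2 are among the 13 genes higher in both libraries without marked cells. Their levels are given here over all cells. Pf4, the chemokine platelet factor 4, was at 526 CPM (479 to 577) in female low and 243 CPM (224 to 264) in female high cells, and at 825 CPM (680 to 992) and 325 CPM (302 to 349) in males. Tcn2, the carrier of vitamin B12, was at 168 and 64.7 CPM in females and at 110 CPM (61.3 to 181) and 62.7 CPM (53.0 to 73.8) in males. These male intervals overlapped, and over all cells Tcn2 was not among the genes higher in both libraries. Ccl2 and Ccl7, chemokines that draw monocytes, were 3.11-fold and 3.79-fold higher in female members, with 78.1% and 79.2% of their UMIs in 5 cells. Pf4 in males was spread over 20 of the 33 members.

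The gene lists place these genes among their relatives, and each is given for the unmarked female cells with the number of genes past 2-fold. The lists were chosen with earlier results of these data known, so their counts describe the cells and test nothing. Lists also share genes: Cd163 and Pf4 recur across them, so the counts of different lists are not separate results. Of the list of microglia-linked residency genes, which tissue macrophages of several organs share, 12 of 15 genes were measured. The name of the list does not show how long the members stay in the tissue. The median log2 ratio of these was 0.70, against 0.08 for all genes, with 10 above the median of all genes. AA467197 was past 2-fold higher and 0 genes were lower, where 0.757% of all genes were higher and 0.812% lower. Cx3cr1 was at 926 CPM (863 to 992) in female low and 772 CPM (737 to 809) in female high cells, 1.2-fold higher (1.10 to 1.30), and 1.35-fold without marked cells. Tmem119, a membrane protein of microglia, was 1.62-fold higher in female members (1.31 to 1.99), and Gpr34, a lysophosphatidylserine receptor, 1.87-fold (1.42 to 2.45).

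In male members the same list had a median of -0.36 over all cells and -0.07 without marked cells. Cx3cr1 was at 577 CPM (457 to 719) in male low and 905 CPM (867 to 945) in male high cells, 1.57-fold lower (1.25 to 1.99). Without marked cells it was at 893 and 938 CPM, a ratio of 0.953 (0.732 to 1.22), so the lower male level of Cx3cr1 was not seen once the marked cells were left out.

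Scavenger receptors and genes for the uptake of dying cells were on the higher side as well. Of 15 measured genes, 2 were past 2-fold in unmarked female cells, Cd163 and Stab1, where 0.757% of all genes were higher, 0 were lower, and the median was 0.41 with 12 above the median of all genes. Stab1, the scavenger receptor stabilin-1, was at 727 CPM (672 to 786) in female low and 345 CPM (321 to 369) in female high cells, 2.11-fold higher (1.90 to 2.35). Msr1, the class A scavenger receptor, was 1.64-fold higher (1.34 to 2.01), and Mrc1, the mannose receptor, 1.41-fold (1.21 to 1.65). Cd36, a receptor for fatty acids and oxidised lipoproteins, was the reverse, at 187 and 342 CPM, 1.83-fold lower (1.54 to 2.18). In unmarked male cells 3 of 13 measured genes of the list were higher and 0 lower, where 7.13% of all genes were higher. The male median was 0.88, against 0.05 for all genes.

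Steroid receptors and genes that glucocorticoids, steroids of the adrenal cortex, are known to induce formed 1 list, and its measured genes, the glucocorticoid receptor gene Nr3c1 among them, were all on the higher side in females. Of 9 measured genes 2 were past 2-fold in unmarked cells, Cd163 and Klf9, where 0.757% of all genes were higher, and 9 of 9 lay above the median of all genes, with a median of 0.69. Tsc22d3, which encodes the glucocorticoid-induced leucine zipper, was at 519 CPM (473 to 570) in female low and 298 CPM (277 to 321) in female high cells, 1.74-fold higher (1.54 to 1.96). Fkbp5, a co-chaperone of the glucocorticoid receptor, was 1.60-fold higher (1.32 to 1.93), and Klf9, a transcription factor, 2.31-fold (1.77 to 3.01). In males the list had 6 measured genes, 0 past 2-fold and a median of 0.03 without marked cells. Tsc22d3 was at 190 CPM (124 to 278) in male members, and Fkbp5 at 51.1 CPM (20.6 to 105) from 7 UMIs. NK cells hold Tsc22d3 too (191 CPM in the female gate).

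Mitochondrially encoded genes of respiration were on the lower side in the same cells. All 13 were measured, with 0 past 2-fold, 1 above the median of all genes and a median of -0.36 in unmarked females, and the male median was -0.38. For example mt-Nd1, a subunit of respiratory complex I, was at 1614 CPM (1531 to 1701) in female low and 2127 CPM (2068 to 2186) in female high cells. The 49 nuclear genes of respiration had a median of 0.04. The mitochondrial share of a cell's UMIs had a median of 2.71% in female members and 3.10% in female high cells, and 2.5% and 2.86% in males.

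The list of Lyve1-side macrophages, which describes the neighbouring cells left out of the gate, had 5 of its 8 genes outside the rule measured, 3 of them higher (Cd163, F13a1 and Pf4), 0 lower and a median of 1.38, where 0.757% of all genes were higher and 0.812% lower. Other lists had too few measured genes to describe as groups. Of the neutrophil genes 3 were measured and 2 were lower, S100a8 and S100a9, whose UMIs lay in 3.94% and 5.13% of female high cells. Of the dendritic cell genes 2 were measured, with 1 lower, and of the Ly6 family 2, with 1 higher (Ly6a).

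For the following lists too, 0.757% of all genes were higher and 0.812% lower. Core macrophage genes had a median of 0.20 in unmarked females, with 0 of 18 past 2-fold higher and 1 lower (Itgax). Lysosomal genes had 0 of 18 past 2-fold and a median of 0.15, and the interferon gamma response genes had 1 of 12 lower, the chemokine Cxcl9, and a median of 0.21. The 21 genes of lipid handling had 2 higher (Apoc1 and Apoc2), 1 lower (Lpl) and a median of -0.02. Of 16 chemokine and cytokine genes 3 were higher (Ccl2, Ccl7 and Pf4) and 0 lower. In unmarked male cells 7.13% of all genes were higher and 9.53% lower. There 6 of 20 lipid handling genes were higher and 1 lower (median 0.68). Of 18 lysosomal genes 4 were higher and 0 lower (median 0.58), and of 17 chemokine and cytokine genes 8 and 2. Of 18 core macrophage genes 0 were higher and 2 lower (median -0.04, and -0.42 over all male cells). Of 11 interferon gamma response genes 1 was higher and 0 lower.

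**Figure D4:**
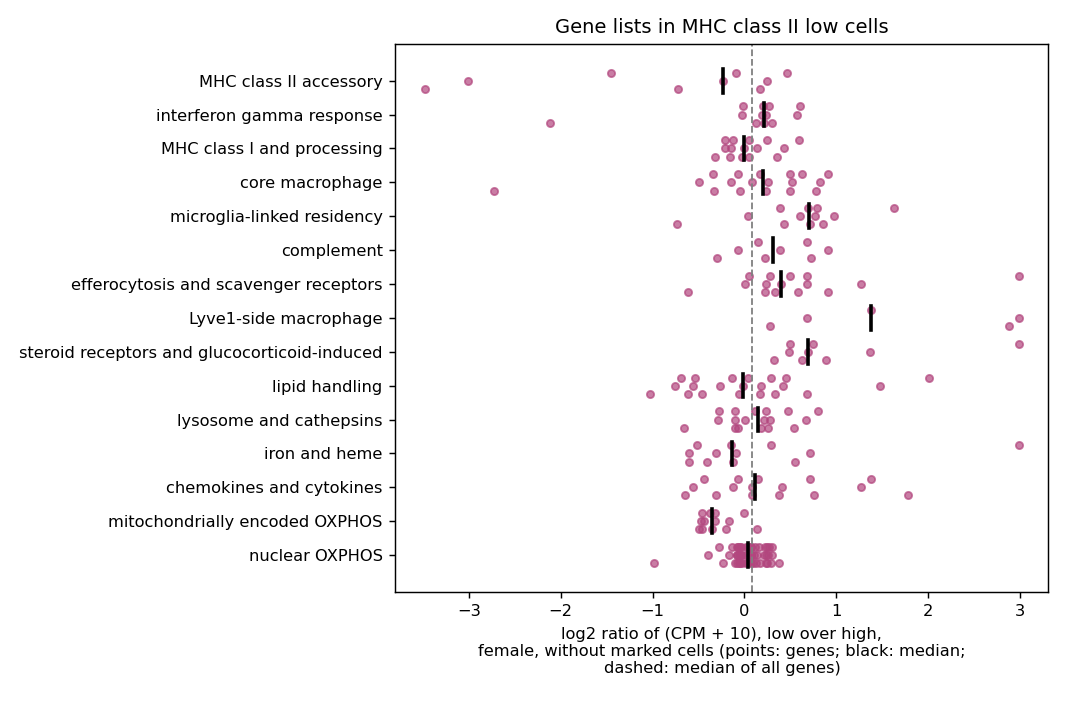
Log2 ratio of (CPM + 10) in low over high cells of the female library without marked cells (horizontal axis) for the measured genes of 15 lists (vertical axis). Points are genes, black bars the median of a list and the dashed line the median of all genes, 0.08, and the list of microglia-linked residency genes (0.70) lies right of the line while that of mitochondrially encoded genes (-0.36) lies left of it.

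The levels of these genes did not change at one common step of the MHC class II level in the female library. Cd163 was at 216 CPM in the 103 cells at 0 to 2 UMIs per 1000 and at 8.27 CPM in the 49 cells at over 2 to 5. Ecm1 fell from 513 CPM to 186, 192, 153, 98.0 and 38.4 CPM over the 6 steps. F13a1 went from 397 CPM through 298, 154, 55.9 and 31.8 to 23.3 CPM. AA467197 was at 406, 455 and 245 CPM in the low steps and still at 299 and 220 CPM in the first high steps, before 65.9 CPM in the cells above 40.

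Ciita, H2-DMb1 and Itgax ran the other way without a gap at the boundary. Ciita was at 4.54, 0 and 37.2 CPM in the low steps and at 68.1, 102 and 163 CPM in the high steps. H2-DMb1 went from 43.1 CPM in the lowest to 759 CPM in the highest step, and Itgax from 18.2 to 188 CPM. Cx3cr1 had no single direction and was highest in the lowest step, at 1133 CPM, against 641 to 860 CPM in the high steps.

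**Figure D5:**
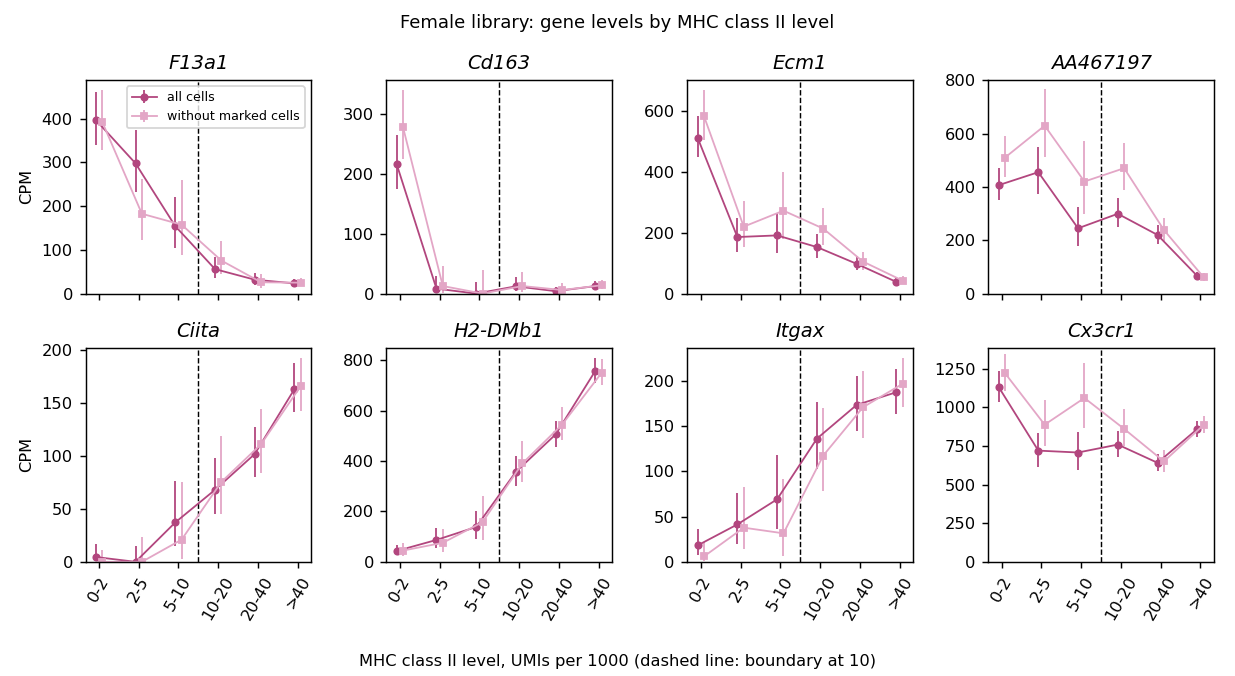
Level of 8 genes (vertical axis, CPM) in the female C1q gate by step of the MHC class II level (horizontal axis, UMIs per 1000), for all cells and without marked cells, with 95% Poisson intervals and the boundary of 10 as a dashed line. Cd163 is high in the lowest step only, F13a1 and Ecm1 fall over several steps, and Ciita, H2-DMb1 and Itgax rise across the boundary.

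The female members were mixed in these genes. Among the 141 unmarked members, AA467197 was detected in 58, and Cd163 in 1 of these 58 (1.72%) and in 21 of the 83 others (25.3%). The cells with AA467197 were deeper, with a median of 4846 UMIs against 3089. After a draw of 1000 UMIs from each cell, Cd163 was found in 0 of 32 cells with AA467197 and in 16 of 109 without. Of the 22 cells with Cd163, 21 also held Pf4 (95.5%), against 42 of the 119 cells without it (35.3%), and 17 held Gpx3 (77.3%) against 28 (23.5%). Ly6a, which encodes the surface protein Sca-1, was detected in 41 of the 58 cells with AA467197 (70.7%) and in 22 of the 83 without (26.5%), and in 5.00% of female NK cells. After the draw it was found in 14 of 32 and in 22 of 109 cells. These pairs were chosen after the values had been seen.

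Neighbouring macrophages with other transcripts shared part of this pattern. The cells left out of the gate for Lyve1, Folr2, Cbr2 or Fcna were 30 in the female and 60 in the male library, and those left out for Retnla were 59 and 105. F13a1 was at 823 and 979 CPM in these female groups and at 1305 and 1683 CPM in the male ones, above the 317 CPM of the female members. Cd163 was at 364 and 246 CPM in the female groups. AA467197 was at 43.3 and 56.4 CPM there and at 25.6 CPM in the female monocyte gate, below the 385 CPM (345 to 428) of the female members. The monocyte gate held 423 CPM of F13a1 and 1.28 CPM of Cd163. Mgl2 was at 823 and 834 CPM in the female groups and at 31.0 CPM in the female members.

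Finally the members of both sexes were compared with each other, which the rule had not done. Of 4620 genes with at least 30 UMIs over the low cells, 258 (5.58%) were 2-fold or more higher in females and 207 (4.48%) higher in males. With TMM factors these were 406 and 109. That scaling moved the median of all genes by 0.21 (log2), from -0.03 to 0.18, further from 0, and the split carries this shift. Without marked cells 294 of 3241 genes (9.07%) were higher in females and 170 (5.25%) in males, and these shared 176 genes with the 465 found over all cells. AA467197 (chr2:122636986-122641191, plus strand) was at 385 CPM in females, from 335 UMIs in 67 cells, and at 0 UMIs in males. A floor of 3 UMIs over the male members is 21.9 CPM. Against it the gene was at least 17.6-fold higher in female members, and at least 12.8-fold higher without marked cells. Such bounds cover counting error only, and the UMIs of this gene lay in a part of the cells. The male high cells held AA467197 at 36.5 CPM (29.2 to 45.1). Because of that spread, no fold is given for male members against male high cells. Over the 20 unmarked male members the floor is 41.2 CPM, above the 40.1 CPM of unmarked male high cells. F13a1 was 7.24-fold higher in female members (3.28 to 19.9) and 10.9-fold without marked cells (2.96 to 90.4).

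Of the 12 genes named for this comparison 9 were past 2-fold without the marked cells as well. Apoc1, Slfn1 and Tspan31 had 0 UMIs in male members. Against the floor over all male members they were at least 4.88-fold, 3.83-fold and 3.04-fold higher in females. A bound without marked cells is not given for them. Sirpb1c, a signal-regulatory protein with close paralogs, rested on 1 male UMI (15.1-fold higher in females, 2.65 to 603). On the male side the 223 UMIs of Mmp12 came from 4 cells, 3 of them unmarked. Sept1, Cd2, Gimap4, Ms4a4b and Spry2, which NK cells express, had 48, 16, 69, 88 and 22 UMIs in male members and 3, 0, 7, 2 and 0 without the marked cells. Ecm1 was 2.68-fold higher in female members (1.67 to 4.59) and 1.76-fold without marked cells (1.09 to 3.02). Cx3cr1 was 1.61-fold higher in female members (1.27 to 2.05) and 1.24-fold without marked cells (0.958 to 1.62), so that its level in unmarked members of both sexes did not differ beyond counting error.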

How the data were processed

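The deposited files hold raw UMI counts per gene and barcode for 1 female and 1 male library. Per the labels and file headers the authors made these counts with Cell Ranger 4.0.0 and removed empty barcodes by the barcode rank curve. The submitters' processing notes name the build mm10, and the annotation is not given in the sources used here. Close paralogs, and genes that overlap another gene on their strand (among them Apoc2, Cx3cr1, H2-DMa and Itgam), may split reads, so these levels are uncertain. The members, the 34 gene lists and the rules were chosen with earlier results of these data known.

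The counts of all cells in a class were added up within each library and scaled to the total of that class (Python 3.11.15, numpy 2.4.6, scipy 1.17.1). Genes needed 50 UMIs over low and high cells, or 30 over the low cells of both libraries, and a pseudocount of 10 CPM. Genes were named by rule: the 14 highest and 14 lowest ratios in females, 6 and 6 in males and 6 and 6 between the sexes, detected in at least 10% of the cells of either side, without the 14 genes of the gate, plus list genes and the 4 markers. TMM factors came from edgeR 4.0.16 in R 4.3.3 and figures from matplotlib 3.10.9. Scoring was tested on simulated Poisson counts without differences between cells, which does not cover genes whose UMIs lie in few cells. The study's mitochondrial ceiling of 1.2% was replaced by 15%, since its scale is unclear, and is tried as an alternative. Doublets were not removed: the Scrublet threshold in scanpy 1.11.5 marked 9 of 6648 barcodes (0.135%) and so had not worked, and removal at a fixed 0.8% per 1000 barcodes, an alternative, took 126 female and 58 male barcodes, among them 13 female and 1 male members. All 13 of these female members were marked cells, 11 of them with NK genes. The study had found a cluster of doublets between NK cells and macrophages and kept it out of its main figures. No such cluster was taken out here. Other alternatives varied the boundary, gate, depth, scaling, pseudocount and UMI minimum.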

Additional observations from a re-analysis of the deposited data

Results flagged for a closer look

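Mmp12 and Sirpb1c had low-to-high ratios on opposite sides of 0 in the libraries, and the difference was not tested. For Mmp12 the log2 ratio was -2.48 in females and 2.07 in males, where 4 of the 33 members held all UMIs. For Sirpb1c it was 1.02 in females, from 96 UMIs in 61 members, and -1.64 in males, where the members held 1 UMI and the interval of the ratio ran from 0.00797 to 1.87.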

How the results depend on the processing

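The female share of low cells stayed above the male share under each alternative run, by 21.4 points in the main setting, 17.6 points with a boundary of 5, 33.2 points with the mitochondrial ceiling of 1.2% (15 of 36 against 4 of 47 cells) and 26.7 points with a boundary of 20. The male share itself moved, from 5.65% to 3.49% with at least 10 C1q UMIs (19 of 545 cells) and 8.40% with at least 3. With a boundary of 20 the male share was 10.3%. The counts of genes past 2-fold were 83 in females, 635 in males and 465 between the sexes. With a pseudocount of 1 CPM they were 180 in females and 1004 in males, and with 50 CPM they were 33, 125 and 123. With a minimum of 200 UMIs per gene they were 37, 144 and 52, and without a minimum 1574 in males and 1601 between the sexes. The 28 genes named in females kept their direction under all 13 alternatives run on them, of which the pseudocounts and UMI minimums could not turn it, but 19 of them were past 2-fold with a pseudocount of 50 CPM, 27 with the mean of per-cell CPM, and 26 without monocyte-marked or without all marked cells. Without all marked cells Chil3 and Ly6c2 had log2 ratios of 0.14 and 0.34. Without NK-marked cells the male log2 ratios reversed for Cd7 (-0.28), Ccl5 (-1.69) and Il2rb (-0.69), and the ratio of female to male members for Spry2 (0.35). Without all marked cells these values were -0.31, -1.56, -0.73 and 0.42. No paired analysis was possible because there was 1 library per sex, and no replicate could be left out. Depth limits the male values: 33 members held 136905 UMIs, and a gene with 0 UMIs there was set to a floor of 21.9 CPM, for counting error only.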
